A study of Homo sapiens with 29 samples.

Results

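The 10 genes described here are CREB5, SNAI2, ETS2, ARID5B, TSC22D1, CCNL1, RCAN1, PPP1R3C, FILIP1L and CLDN1. They were taken from the 10737 genes listed in at least 1 of 3 deposited count tables, and chosen by their counts, which were higher in cells with ruptured micronuclei than in cells with intact micronuclei on each of 3 dates. That comparison chose the 10 members, so its values are given as a description. The questions tested were whether each member also differed after inhibition of Mps1, in cells that carry a micronucleus, and between the light pulses used to mark the cells. All 10 members were listed in each of the 3 tables, and each was matched by its Ensembl identifier.

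The libraries come from hTERT RPE-1 (RPE1), human retinal pigment epithelial cells immortalised with telomerase, here carrying the chromatin marker H2B-emiRFP703 and the photoconvertible nuclear marker NLS-3xDendra2. Mps1i is BAY1217389, an inhibitor of the spindle assembly checkpoint kinase Mps1, given at 100 nM for 24 h, and DMSO is its solvent. MN+ and MN- cells were both treated with Mps1i and were sorted as carrying or lacking a micronucleus (MN). Rupture+ and rupture- cells were treated with Mps1i too and were sorted as having at least 1 ruptured or only intact micronuclei. The sample labels give these last cells a pre-treatment with RO-3306, a Cdk1 inhibitor, at 10 µM for 20 h, whereas the study's methods name a Cdk4/6 inhibitor for synchronising them. The study's methods also put sorted cells in RO-3306 shortly before imaging, and do not state this separately for the DMSO cells. Cells were marked by a 200 ms or an 800 ms light pulse before sorting. DMSO and Mps1i cells were set by treatment, and their pulse was assigned at random. MN and rupture groups were assigned by an image classifier, so those groups can hold wrongly assigned cells.

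There were 4 DMSO, 4 Mps1i, 4 MN- and 4 MN+ libraries from 2 experiments for each pair of groups, with 1 library of each pulse per experiment, and 3 rupture- and 3 rupture+ libraries from 3 dates. All rupture+ cells received the 200 ms pulse and all rupture- cells the 800 ms pulse, so rupture and pulse length cannot be told apart within that table. Total counts per library ranged from 47919780 to 145242185. The tables hold 10577 genes for Mps1i and DMSO, 10594 for MN+ and MN-, and 9461 for rupture. Of 18 names searched as markers of retinal pigment epithelium, 6 were listed in each table (OTX2, MITF, PAX6, KRT8, KRT18 and VIM). The names not listed include RPE65, BEST1, RLBP1 and LRAT, which mark the mature epithelium. Levels are CPM, which here means counts scaled to the library total after TMM normalization, and are compared for 1 gene at a time because CPM is not corrected for transcript length. RNA was measured in bulk, so a change in the share of cells that express a gene and a change in RNA per cell cannot be told apart.

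A micronucleus forms when a chromosome or a fragment is left outside the main nucleus at the end of mitosis and receives an envelope of its own. That envelope is fragile, and its rupture exposes the DNA inside to the cytoplasm. Among the members, CREB5, ETS2 and SNAI2 are sequence-specific transcription factors, of the bZIP, ETS and zinc-finger classes, and SNAI2 is known for repressing epithelial genes. ARID5B and TSC22D1 are chromatin and transcription regulators with an AT-rich interaction domain and a leucine zipper. CCNL1 (cyclin L1) takes part in pre-mRNA splicing, RCAN1 inhibits the phosphatase calcineurin, and PPP1R3C brings protein phosphatase 1 to glycogen. FILIP1L is a relative of the filamin-binding protein FILIP1, and CLDN1 (claudin-1) is a membrane protein of tight junctions.

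Promoter sequence was read from RefSeq (GRCh38.p14), whose table holds 23 windows of 300 bases for 9 of the members and none for SNAI2. The windows were searched on both strands for 12 motifs, among them the cyclic AMP response element TGACGTCA (CRE), to which CREB and ATF factors bind, the AP-1 element TGANTCA of FOS and JUN factors, and the CArG box of serum response factor. The CRE is not itself a match to the AP-1 letters, since it has 1 more base at its centre. A CRE was found in 2 of the 23 windows (of CCNL1 and RCAN1), against 1.848% of all 35116 windows. An AP-1 element was found in 4 (of CREB5, TSC22D1 and RCAN1), against 7.709%, and a CArG box in 2 (of FILIP1L and RCAN1), against 1.293%. Of motifs of other factors, the E-box CAGGTG of SNAI proteins was found in 1 window, against 20.6%, the ETS motif CCGGAAGT in 0, against 4.14%, the TEAD motif GGAATG in 2, against 14.03%, and the NFAT motif TGGAAA in 5, against 20.7%. The E-box CACGTG of MYC was found in 2 windows, against 7.26%, the FOXO motif TGTTTAC in 1, against 3.42%, and the shorter element TGACGT, which every CRE also holds, in 4, against 7.98%. The general promoter elements TATAAA and CCAAT were found in 6 windows each, against 11.5% and 34.6%. Members with several windows had more chances of a match, so these shares are not a comparison of like with like. The stretches below lie before a start site of FILIP1L, of TSC22D1 and of RCAN1 at 2 starts, hold no annotated exon and are shown because each carries a CRE, an AP-1 element or a CArG box, which is in capitals. Sequences run 5′ to 3′ on the minus strand. The FILIP1L stretch is chr3:99876204-99876423, with the CArG box beginning at -60 from the start.
FILIP1L: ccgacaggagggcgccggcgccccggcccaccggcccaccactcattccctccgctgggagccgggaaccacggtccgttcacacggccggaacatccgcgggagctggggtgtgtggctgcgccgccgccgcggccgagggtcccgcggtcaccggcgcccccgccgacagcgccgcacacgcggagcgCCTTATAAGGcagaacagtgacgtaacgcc
The TSC22D1 stretch is chr13:44474342-44474591, with the AP-1 element beginning at -77.
TSC22D1: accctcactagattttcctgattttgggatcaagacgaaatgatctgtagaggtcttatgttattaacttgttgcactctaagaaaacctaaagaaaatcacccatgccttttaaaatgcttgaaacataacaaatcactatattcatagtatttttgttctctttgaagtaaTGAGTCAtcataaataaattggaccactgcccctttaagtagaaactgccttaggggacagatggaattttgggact
The RCAN1 stretch at its first start is chr21:34615114-34615363, with the CArG box beginning at -239.
RCAN1 first start: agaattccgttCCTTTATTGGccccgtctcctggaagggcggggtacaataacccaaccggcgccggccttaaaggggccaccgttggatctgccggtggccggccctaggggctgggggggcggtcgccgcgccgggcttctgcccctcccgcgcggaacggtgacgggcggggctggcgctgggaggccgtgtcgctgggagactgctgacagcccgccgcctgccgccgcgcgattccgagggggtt
The RCAN1 stretch at an inner start is chr21:34526964-34527072, with the CRE beginning at -181.
RCAN1 inner start: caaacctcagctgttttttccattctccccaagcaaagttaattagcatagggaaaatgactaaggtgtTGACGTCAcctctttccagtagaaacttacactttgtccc
A letter match is a description of the sequence, and binding was not measured.

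The members lie on 6 chromosomes of GRCh38 (GENCODE v44). FILIP1L (ENSG00000168386, chr3:99828811-100114513, minus strand), CCNL1 (ENSG00000163660, chr3:157146508-157160760, minus) and CLDN1 (ENSG00000163347, chr3:190305707-190322446, minus) are on chromosome 3, and CREB5 (ENSG00000146592, chr7:28299321-28825894, plus) is on chromosome 7. PPP1R3C (ENSG00000119938, chr10:91628442-91633071, minus) and ARID5B (ENSG00000150347, chr10:61901684-62096944, plus) are on chromosome 10, and TSC22D1 (ENSG00000102804, chr13:44432143-44577147, minus) is on chromosome 13. RCAN1 (ENSG00000159200, chr21:34513142-34615113, minus) and ETS2 (ENSG00000157557, chr21:38805183-38824955, plus) are on chromosome 21, and SNAI2 (ENSG00000019549, chr8:48917598-48921740, minus) is on chromosome 8. All 10 are annotated as protein-coding. FILIP1L overlaps CMSS1 on the opposite strand, and the libraries carry no strand, so reads of the shared stretch could fall to either gene. RCAN1 overlaps a further protein-coding annotation on its own strand, which is not listed in the tables.

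In the rupture table, all 10 members were higher in rupture+ than in rupture- on each date, which is how they were chosen. Their log2 fold changes had a median of 0.64, against -0.0022 over all 9461 genes. By the rule alone, 1819 genes (19.2%) were higher on all 3 dates, and 60 genes (0.634%) were so with a fold change as large as that of RCAN1, the lowest member. The 10 members are among those 60, and the other 50 were not taken. CREB5 ranked 8 among all genes by fold change, FILIP1L 10 and SNAI2 11, and RCAN1 ranked 71. The p-values of this comparison are not given for the members, because it chose them.

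Of the transcription factors, CREB5 measured 14.7, 11.9 and 12.6 CPM in rupture- and 23.2, 25.9 and 25.9 CPM in rupture+ on dates 1 to 3, a log2 fold change of 0.93. SNAI2 measured 10.8, 11.8 and 11.6 CPM in rupture- and 20.2, 19.8 and 21.8 CPM in rupture+, a log2 fold change of 0.85. ETS2 measured 77.3, 68.5 and 67.0 CPM in rupture- and 98.0, 97.5 and 109.6 CPM in rupture+, a log2 fold change of 0.52. For these 3 genes the lowest rupture+ library lay above the highest rupture- library, and SNAI2 was the most even of them, with log2 ratios from 0.74 to 0.91 over the dates. For ETS2 the log2 ratio was 0.34 on date 1 and 0.71 on date 3.

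The chromatin and RNA-processing members also kept their groups apart, in the comparison that chose them. The share of all genes with such a separation was not computed. ARID5B measured 82.0, 76.7 and 77.8 CPM in rupture- and 111, 109 and 137 CPM in rupture+, a log2 fold change of 0.60. TSC22D1 measured 105, 108 and 112 CPM in rupture- and 154, 161 and 179 CPM in rupture+, also 0.60. CCNL1 measured 63.5, 62.9 and 57.9 CPM in rupture- and 85.0, 90.2 and 97.2 CPM in rupture+, a log2 fold change of 0.56. In all 3 genes the rupture+ library of date 3 was the highest of the table.

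RCAN1, the calcineurin inhibitor, measured 92.8, 89.7 and 89.6 CPM in rupture- and 120.5, 121 and 126 CPM in rupture+, a log2 fold change of 0.44. Its log2 ratios had the smallest spread over the dates of any member, from 0.38 to 0.49. PPP1R3C measured 25.2, 23.0 and 20.7 CPM in rupture- and 37.5, 39.4 and 33.9 CPM in rupture+, a log2 fold change of 0.68. It was the member for which date 3 gave the lowest values in both groups. FILIP1L measured 40.0, 35.4 and 44.7 CPM in rupture- and 68.5, 68.1 and 83.4 CPM in rupture+, a log2 fold change of 0.87. CMSS1, its opposite-strand neighbour, measured 62.9, 53.2 and 57.4 CPM in rupture- and 56.9, 49.7 and 58.8 CPM in rupture+, so its groups overlapped. CLDN1 measured 11.8, 12.6 and 11.3 CPM in rupture- and 17.7, 18 and 21.5 CPM in rupture+, a log2 fold change of 0.68.

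**Figure D1:**
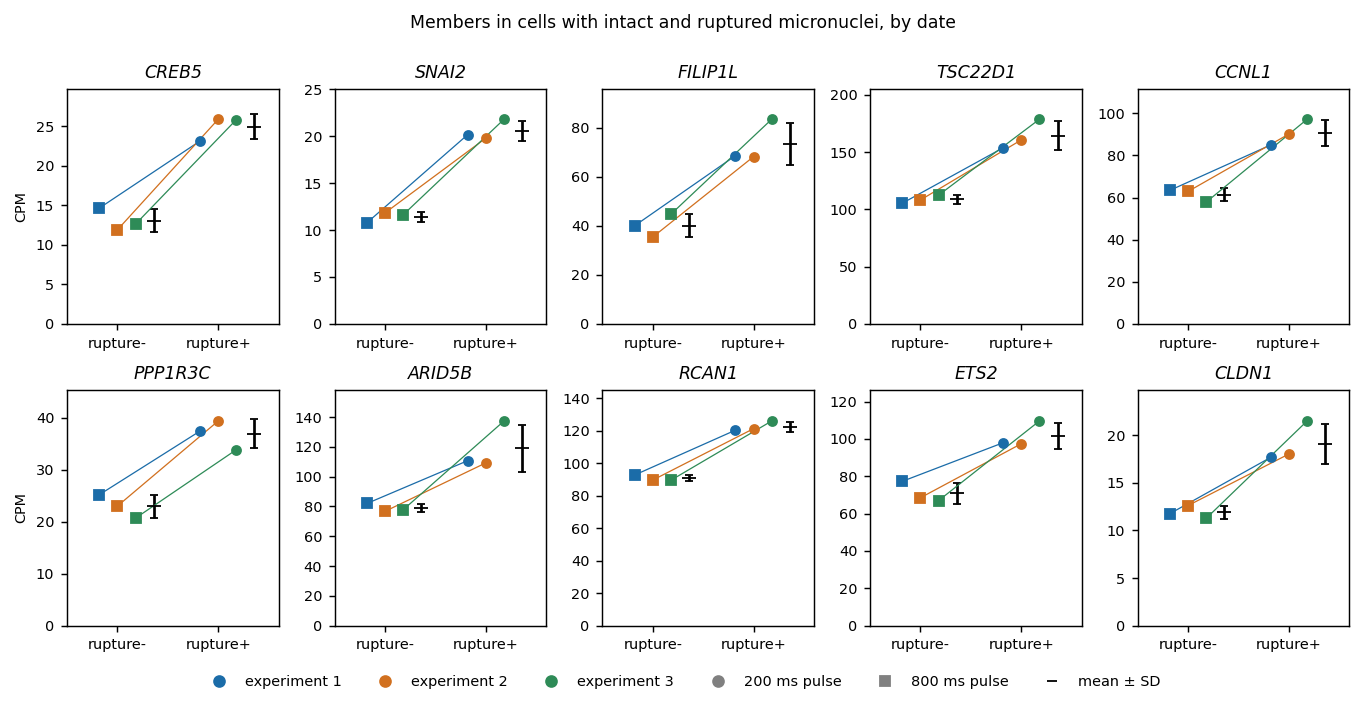
CPM (vertical axes, each from 0) of each member in rupture- and rupture+ libraries, with a line joining the libraries of a date, circles for the 200 ms and squares for the 800 ms pulse, and the mean ± SD beside each group. All lines rise from rupture- to rupture+, as the choice of members requires.

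The members were next compared between Mps1i and DMSO, libraries that played no part in choosing them. CREB5, FILIP1L, TSC22D1, RCAN1, PPP1R3C and CCNL1 were higher in Mps1i, by 1.23 to 1.92 times, and passed the test. ARID5B and CLDN1 had positive differences that passed the test only when the experiment was a block. SNAI2 and ETS2 did not pass either test. In edgeR's quasi-likelihood test with Benjamini-Hochberg adjustment over all genes, 6 of 10 members were thus called higher, against 6.32% of all genes, and 8 of 10 with the experiment as a block, against 12.7%. Both counts include CREB5, which was listed in this table only through Mps1i libraries, as described below. Every Mps1i library lay above every DMSO library for 6 members (10.1% of all genes), and within each experiment for 8 (16.7%). The median log2 fold change of the members was 0.51, against -0.0038 over all 10577 genes. The separation counts include CREB5 too, and the median includes CREB5 and SNAI2, whose listing is described below. The 4 libraries of a group come from 2 experiments, and the p-values reflect the variation among these libraries alone.

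CREB5 had the largest difference of the members. The tables list only genes that reach 700 counts in 2 or more samples, and no DMSO library reached 700 counts of CREB5. It was therefore listed only through Mps1i libraries, the group where it is high, which limits what its call can show. In experiment 1 it measured 3.77 (200 ms) and 3.01 (800 ms) CPM in DMSO and 6.22 and 7.18 CPM in Mps1i, and in experiment 2 it measured 4.32 and 4.16 CPM in DMSO and 7.42 and 8.45 CPM in Mps1i. The groups did not overlap, and the log2 fold change was 0.94 (SE, the standard error, 0.136, adjusted p = 0.00203, edgeR's quasi-likelihood test). FILIP1L measured 11.1, 12.0, 12.3 and 14.3 CPM in DMSO and 18.3, 20.1, 24.0 and 25.9 CPM in Mps1i, in the same order, a log2 fold change of 0.83 (SE 0.115, adjusted p = 0.00165, same test). CMSS1 measured 58.3, 65.3, 61.2 and 57.0 CPM in DMSO and 63.5, 64.2, 57.1 and 56.2 CPM in Mps1i, with overlapping groups. The mean of CMSS1 was 60.5 CPM in DMSO and 60.2 CPM in Mps1i, and how reads of the stretch shared with FILIP1L were divided was not tested.

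RCAN1 had the smallest adjusted p of the members. It measured 45.9, 47.5, 45.7 and 46.8 CPM in DMSO and 69.7, 73.6, 66.1 and 69.3 CPM in Mps1i, a log2 fold change of 0.58 (SE 0.0447, adjusted p = 1.43e-04, edgeR's quasi-likelihood test). The DMSO libraries lay within 2 CPM of each other, and every Mps1i library lay well above them. TSC22D1 measured 89.7, 86.8, 82.4 and 79.4 CPM in DMSO and 138, 137, 116 and 123 CPM in Mps1i, a log2 fold change of 0.60 (SE 0.0633, adjusted p = 4.14e-04, same test). PPP1R3C measured 10.2, 9.56, 11.8 and 11.6 CPM in DMSO and 17.0, 16.4, 14.5 and 15.6 CPM in Mps1i, a log2 fold change of 0.55 (SE 0.0871, adjusted p = 0.00301, same test). Its log2 fold change was 0.76 in experiment 1 alone and 0.36 in experiment 2 alone, and the test of that difference did not pass (adjusted p = 0.221, edgeR's interaction test). CCNL1 had the smallest called difference, from 50.6, 53.6, 52.2 and 52.6 CPM in DMSO to 64.2, 70.9, 60.1 and 61.2 CPM in Mps1i, a log2 fold change of 0.29 (SE 0.0556, adjusted p = 0.00746, same test).

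ARID5B and CLDN1 differed between experiments about as much as between treatments. ARID5B measured 31.6 and 32.9 CPM (DMSO) and 44.2 and 49.1 CPM (Mps1i) in experiment 1, and 48.2 and 44.6 CPM (DMSO) and 59.2 and 64.8 CPM (Mps1i) in experiment 2. The DMSO libraries of experiment 2 thus overlapped the Mps1i libraries of experiment 1, and the log2 difference of 0.47 had an adjusted p of 0.0671 without and 1.68e-04 with the experiment as a block (edgeR's quasi-likelihood test). Without the 200 ms Mps1i library of experiment 1 the adjusted p was 0.0461, and without the 200 ms DMSO library of experiment 2 it was 0.0440, so each of these libraries decides the call in the unblocked test. CLDN1 measured 9.47 and 8.53 CPM (DMSO) and 12.8 and 13.3 CPM (Mps1i) in experiment 1, and 14.5 in both DMSO libraries and 18.2 and 17.8 CPM (Mps1i) in experiment 2. On the log2 scale the difference was 0.40 (adjusted p = 0.177) without the block and 0.42 (adjusted p = 0.00165) with it, both from edgeR's quasi-likelihood test. Within each experiment every Mps1i library of these 2 genes lay above both DMSO libraries.

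SNAI2 measured 5.71, 6.75, 6.15 and 4.89 CPM in DMSO and 8.56, 7.92, 6.42 and 5.93 CPM in Mps1i. The groups overlapped in experiment 2, and the log2 fold change was 0.29 (95% interval -0.02 to 0.60, adjusted p = 0.195, edgeR's quasi-likelihood test, and 0.0758 with the block). Fewer DMSO libraries reached 700 counts of SNAI2 than a listing requires, so the limit given for CREB5 applies to this difference too. ETS2 measured 54.7, 57.7, 58.3 and 58.2 CPM in DMSO and 54.2, 56.6, 60.3 and 62.3 CPM in Mps1i, a log2 fold change of 0.03 with a 95% interval from -0.09 to 0.14 (adjusted p = 0.762, same test). Whether the effect of Mps1i on these genes differs from that of rupture was not tested, since the libraries are in separate tables.

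**Figure D2:**
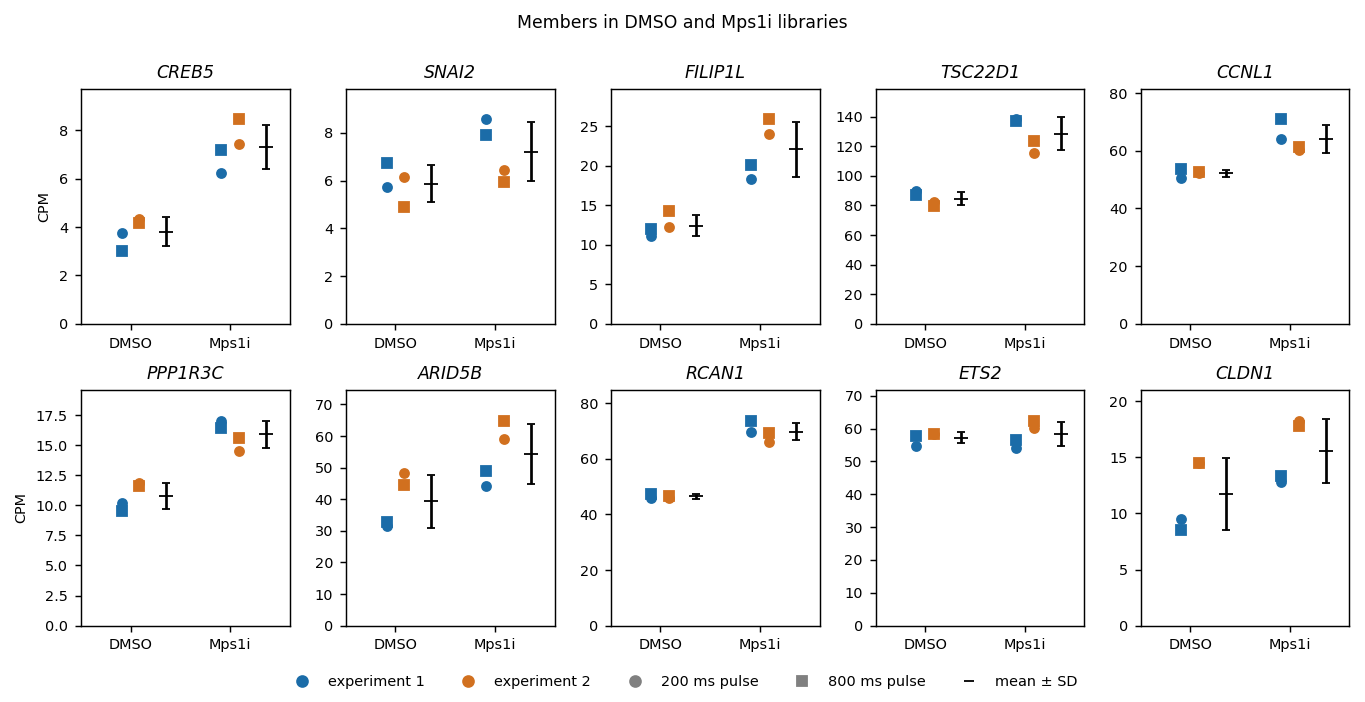
CPM (vertical axes, each from 0) of each member in DMSO and Mps1i libraries, coloured by experiment, with circles for the 200 ms and squares for the 800 ms pulse and the mean ± SD beside each group. For 6 members there is no overlap between the groups, ARID5B and CLDN1 separate only within an experiment, and ETS2 lies between 54.2 and 62.3 CPM throughout.

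Among Mps1i-treated cells, MN+ and MN- libraries were compared to ask whether members differed with the presence of a micronucleus. No member passed edgeR's quasi-likelihood test (0 of 10, and 0% of all genes), with adjusted p of at least 0.641. At an unadjusted p under 0.05, 6 members were higher in MN+ (CREB5, FILIP1L, CCNL1, ARID5B, ETS2 and CLDN1), against 3.79% of all genes. Of the other tests, edgeR with the experiment as a block called 0 members (0.00944% of genes), DESeq2 called 1, FILIP1L (0.0472%), and DESeq2 with the block called 4, FILIP1L, CCNL1, ARID5B and ETS2 (1.41% of the 7718 genes it gave an adjusted p). DESeq2 with the block gave no adjusted p for CREB5, SNAI2, PPP1R3C and CLDN1. The members' median log2 fold change was 0.30, against -0.00048 over all genes, and 9 of 10 were positive. Every MN+ library lay above every MN- library for 2 members, FILIP1L and ARID5B (2.43% of all genes), and within each experiment for 7 (7.33%). CREB5 is among the 6 members at an unadjusted p under 0.05 and among these 7, and it enters the median. Too few MN- libraries reached 700 counts of it for a listing, as described below.

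Each well of this comparison gave an MN+ library of one pulse length and an MN- library of the other, so the libraries can also be read well by well. With the well as the block, an alternative chosen after seeing the data, edgeR's quasi-likelihood test called 3 members (CREB5, FILIP1L and ETS2), against 0.321% of all genes. These 3 include CREB5, whose listing in this comparison limits what its call can show. For FILIP1L, the MN+ and MN- libraries of the 4 wells measured 29.9 and 17.3, 24.2 and 14.2, 25.5 and 17.7, and 26 and 18.9 CPM. Its log2 fold change was 0.63 (SE 0.109, unadjusted p = 1.6e-04, adjusted p = 0.641), and the adjusted p was 0.00458 with the well as the block, both from edgeR. All 4 MN+ libraries lay above all 4 MN- libraries. CMSS1 measured 41.4, 48.6, 47.3 and 45.2 CPM in MN+ and 49.2, 48.2, 47.7 and 48.7 CPM in MN-, and its mean was lower in MN+.

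CREB5 measured 18.4 and 11.2, 14 and 7.02, 9.16 and 7.42, and 12.8 and 7.41 CPM in the MN+ and MN- libraries of the same 4 wells. MN+ was higher in each well, but the MN- library of 11.2 CPM in experiment 1 lay above the MN+ library of 9.16 CPM in experiment 2. Its log2 fold change of 0.71 was the largest of the members (SE 0.221), with an adjusted p of 0.641 without a block and 0.0396 with the well as the block (edgeR). All MN+ libraries reached 700 counts of CREB5, whereas fewer MN- libraries did than a listing requires. The limit given for its call in Mps1i therefore applies here too. ETS2, which did not differ detectably between Mps1i and DMSO, measured 69.9 and 58.9, 77.3 and 60.3, 78.7 and 64.6, and 90.7 and 73.5 CPM. It was higher in MN+ in each well, by 0.30 on the log2 scale (SE 0.101, adjusted p = 0.641, and 0.0425 with the well as the block, edgeR). The lowest MN+ library, at 69.9 CPM, lay below the highest MN- library, at 73.5 CPM, which came from the other experiment.

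ARID5B measured 107, 103, 88.3 and 98.0 CPM in MN+ and 66.9, 83.6, 77.6 and 80.8 CPM in MN- (200 and 800 ms of experiment 1, then of experiment 2), a log2 fold change of 0.36. CCNL1 measured 87.9, 82.8, 71.9 and 73.9 CPM in MN+ and 61.5, 75.1, 60.1 and 61.5 CPM in MN-, a log2 fold change of 0.29. The 800 ms MN- library of experiment 1 was the one that overlapped the MN+ range. CLDN1 measured 25.2, 26.9, 18.5 and 18.4 CPM in MN+ and 20.4, 18.9, 15.2 and 13.5 CPM in MN-, a log2 fold change of 0.39. With the well as the block these 3 had an adjusted p of 0.0545, 0.0545 and 0.0515 in edgeR's test.

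RCAN1, called in Mps1i, measured 71.3, 70.9, 59.1 and 50.8 CPM in MN+ and 54.1, 63.8, 49.4 and 50.6 CPM in MN-, a log2 fold change of 0.21 (95% interval -0.07 to 0.49). The remaining 3 members had values near 0 with wide intervals. TSC22D1 measured 147, 157, 133 and 126 CPM in MN+ and 136, 143, 123 and 133 CPM in MN-, a log2 fold change of 0.08 (95% interval -0.12 to 0.27). PPP1R3C measured 23.1, 20.5, 15.2 and 14 CPM in MN+ and 21.1, 18.8, 12.2 and 15.9 CPM in MN-, a log2 fold change of 0.10 (95% interval -0.34 to 0.54). For these 2 genes the experiments stood further apart than MN+ and MN-. SNAI2 measured 8.06, 6.94, 6.88 and 5.71 CPM in MN+ and 7.38, 6.21, 6.89 and 7.80 CPM in MN-, a log2 fold change of -0.04 (95% interval -0.35 to 0.27). Its groups overlapped in experiment 1. In experiment 2 both MN+ libraries lay below both MN- libraries, but the 200 ms libraries nearly tied, at 6.88 and 6.89 CPM.

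**Figure D3:**
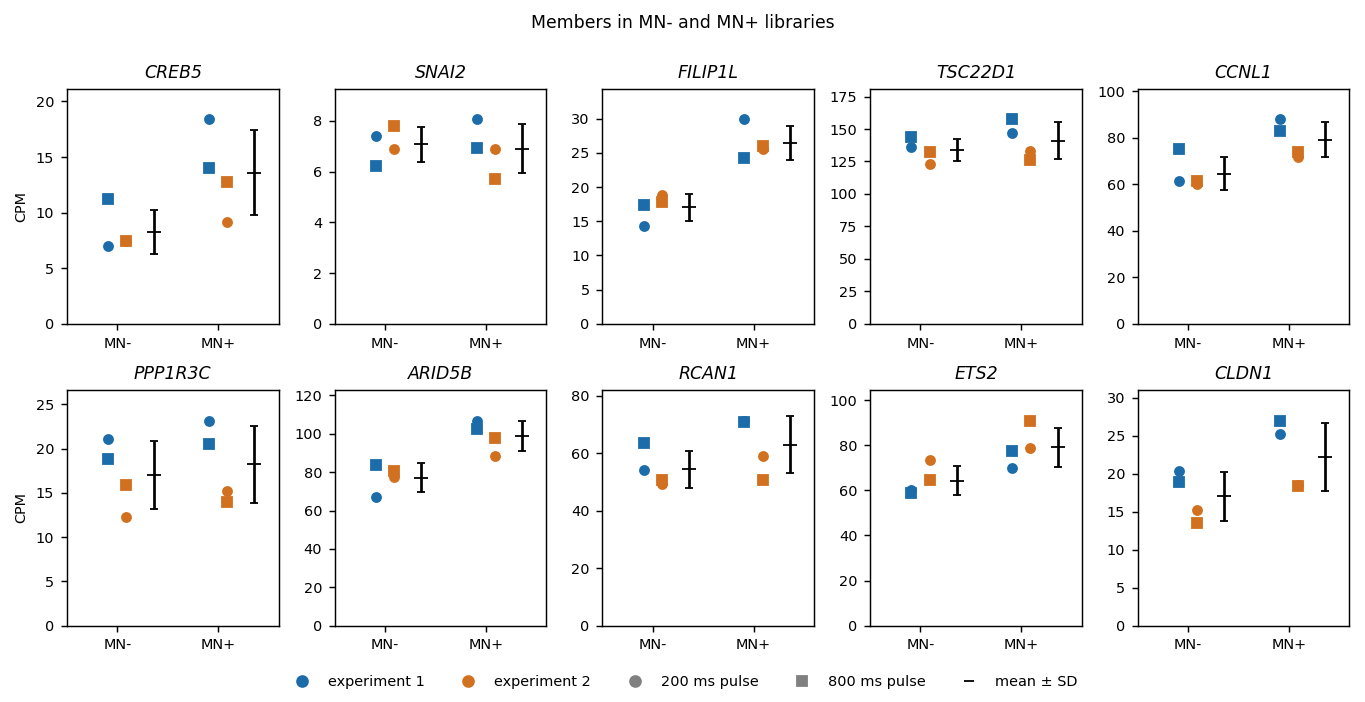
CPM (vertical axes, each from 0) of each member in MN- and MN+ libraries, coloured by experiment, with circles for the 200 ms and squares for the 800 ms pulse and the mean ± SD beside each group. FILIP1L and ARID5B have no overlap between the groups, and the MN+ libraries of CREB5 spread from 9.16 to 18.4 CPM.

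Because pulse length and rupture go together in the rupture table, the members were compared between pulses in the other tables, where each group holds both. No member passed edgeR's quasi-likelihood test in the Mps1i and DMSO table (0 of 10, and 0% of all genes) or in the MN table (0 of 10, and 0%). At an unadjusted p under 0.05 there were also 0 members, against 0.785% and 0.198% of all genes, and DESeq2 called 0 members in the first table (0.0189% of genes). With the experiment as a block, FILIP1L had a difference of -0.14 in the first table (95% interval -0.28 to -0.0071, unadjusted p = 0.0410, adjusted p = 1.0, edgeR's quasi-likelihood test), lower at 200 ms. The differences, 200 ms minus 800 ms, had medians of -0.031 and -0.026 over the members on the log2 scale, and 4 of 10 were positive in each table.

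For CREB5 the difference between pulses was -0.02 (95% interval -0.34 to 0.30) in the Mps1i and DMSO table and -0.16 (-0.68 to 0.35) in the MN table, on the log2 scale. The corresponding values of FILIP1L were -0.14 (-0.39 to 0.11) and 0.03 (-0.24 to 0.29), and those of SNAI2 were 0.07 (-0.25 to 0.40) and 0.13 (-0.19 to 0.46). The narrowest intervals were those of RCAN1 in the Mps1i and DMSO table, from -0.16 to 0.04, and of ARID5B in the MN table, from -0.32 to 0.09. The widest upper ends belonged to CLDN1 (0.46) in the first table and to PPP1R3C (0.52) in the second. These intervals apply to cells that were not sorted by rupture, and the effect of the pulse in the rupture experiments was not tested.

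**Figure D4:**
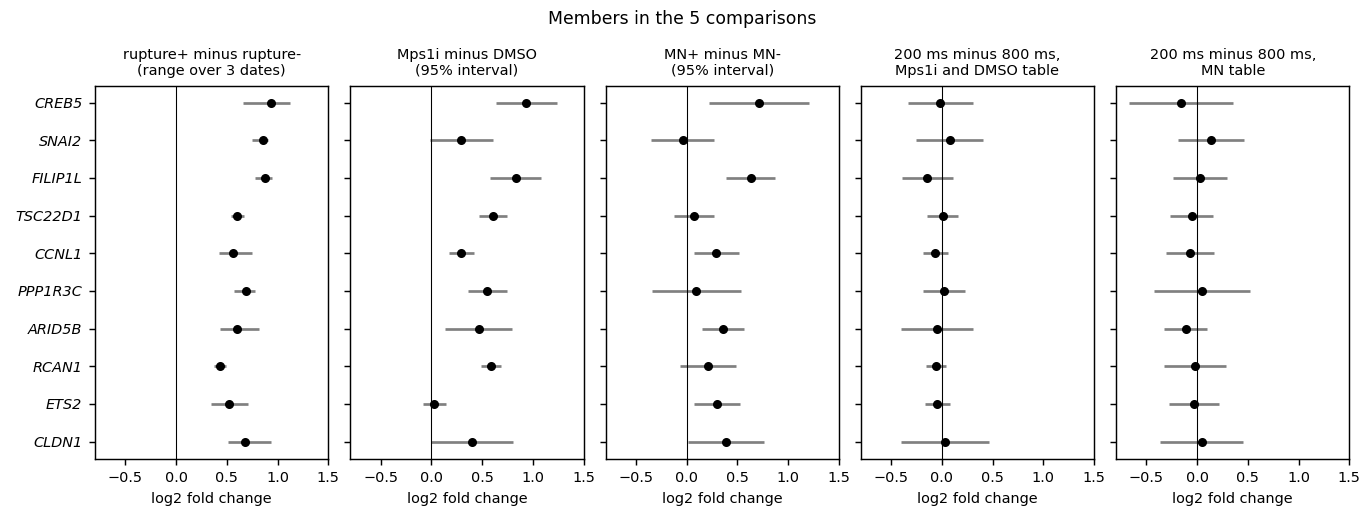
Log2 fold changes (horizontal axes) of each member in 5 comparisons, with grey lines for the range over the 3 dates in the rupture comparison and for the 95% interval of edgeR's fit in the other 4. The Mps1i intervals of 7 members lie above 0, the MN+ intervals of 6 do, and both pulse comparisons have intervals that include 0 for all 10.

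Families and pathways of the members were described from 10 lists, with the members themselves left out. Over all lists, 115 genes were measured in the Mps1i and DMSO table, of which edgeR's quasi-likelihood test called 8 higher and 1 lower, 7.83% in all, against 12.1% of all genes in either direction. Among CREB and ATF bZIP factors, which share the DNA-binding fold of CREB5, 3 of 18 were higher and 1 was lower in Mps1i. ATF3, a stress-induced factor, rose from 2.58 ± 0.405 CPM in DMSO to 7.96 ± 1.53 CPM in Mps1i (SD over 4 libraries), or by 1.62 on the log2 scale (adjusted p = 3.16e-04), and CREB3L2 fell by 0.42 on the log2 scale (adjusted p = 0.00356, edgeR's test). No DMSO library reached 700 counts of ATF3, so it was listed in this table only through Mps1i libraries, where it is high. The list's median was -0.0046, against -0.0038 over all genes. ARID5A, a paralogue of ARID5B, was higher (0.38, adjusted p = 0.0253), as 1 of 12 ARID proteins. TSC22D3 was higher (0.59, adjusted p = 0.00293), as 1 of 7 genes of the TSC22 list, and CCNL2 was higher (0.14, adjusted p = 0.0300), as 1 of 13 transcriptional cyclins and kinases.

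Of the pathway lists, 1 of 14 calcineurin and NFAT genes was higher in Mps1i, PPP3CC, a catalytic subunit of calcineurin (0.14, adjusted p = 0.0449, edgeR's test). Of 9 tight junction genes, F11R, an adhesion molecule, was higher (0.23, adjusted p = 0.0460). None of the 6 transcription factors of the epithelial-mesenchymal transition listed with SNAI2, 15 ETS factors, 16 genes of glycogen metabolism and 5 FILIP1 and filamin genes was called. At an unadjusted p under 0.05 these 4 lists had 0, 4, 3 and 1 genes, and the share of all genes under it was 28.9%. With the experiment as a block, 18 genes of all lists were higher and 7 lower, 21.7% against 24.5% of all genes.

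Between MN+ and MN-, 0 of the 115 listed genes passed edgeR's test, and 6 had an unadjusted p under 0.05, or 5.22% against 7.45% of all genes. DESeq2 called 0 of them and, with the experiment as a block, 3, or 2.61% against 1.57% of all 10594 genes. With the well as the block, ETS1, a paralogue of ETS2, was called higher (0.39, adjusted p = 0.0425, edgeR). The median over the lists was 0.074, below the 0.30 of the members. In the rupture table edgeR called 0 of 100 listed genes and 3 of all genes, and 8 listed genes, or 8.0%, had an unadjusted p under 0.05, against 8.95% of all genes. With the date as a block it called 2 listed genes, against 0.159% of all genes, ATF3 (1.13, adjusted p = 0.0343) and FOS (0.74, adjusted p = 0.0352), both bZIP factors that can bind the AP-1 element. DESeq2 called ATF3 (adjusted p = 8.25e-04), against 0.497% of all genes. The libraries behind ATF3 averaged 9.63 ± 1.90 CPM in rupture- and 21.9 ± 8.08 CPM in rupture+ (SD, n = 3 each).

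Over the 16 Mps1i, DMSO, MN+ and MN- libraries, with log2 CPM centred within each experiment, 44 of the 45 pairs of members had a positive Pearson's r, with a median of 0.73. The highest was 0.97, between CREB5 and ARID5B, and the lowest -0.21, between SNAI2 and ETS2. These points share 4 groups whose means differ, so r contains the differences between groups already given. Pearson's r over pairs of all genes was not computed for comparison. The genes most like a member by this measure were CNST (0.97) for CREB5, FBXO9 (0.93) and PHYH (0.89) for SNAI2, and FGD4 and RIOK3 (0.96 each) for FILIP1L. They were INHBA (0.99) and TRIM22 (0.98) for TSC22D1, DEPDC7 (0.97) for CCNL1, and WFS1 (0.98) and CHRNB1 (0.94) for PPP1R3C. For RCAN1 they were TRIM22 and GBP1 (0.97 each), for ETS2 PIP5K1A (0.88) and FARP1 (0.87), and for CLDN1 TMEM198B (0.92) and ZNF441 (0.91). ARID5B was most like CREB5 and CCNL1 (0.96), and it was also the second gene for both.

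Genes of the members' own chromosomes were examined as a group, since Mps1 inhibition alters chromosome number. In the rupture table the other genes had a median log2 fold change of 0.028 on chromosome 3 (570 genes), 0.015 on chromosome 7 (441), 0.050 on chromosome 8 (321), 0.046 on chromosome 10 (373), 0.062 on chromosome 13 (170) and -0.024 on chromosome 21 (92). In Mps1i over DMSO these medians ran from -0.028 (chromosome 21) to 0.015 (chromosome 3), and in MN+ over MN- from -0.0078 (chromosome 7) to 0.067 (chromosome 13). In the rupture table the share of these genes above 0 was 56.1% (chromosome 3), 52.8% (7), 66.0% (8), 66.0% (10), 66.5% (13) and 41.3% (21). The median over all genes there was -0.0022. The share ran from 40.2% (chromosome 21) to 53.5% (3) in Mps1i over DMSO and from 47.5% (7) to 72.6% (13) in MN+ over MN-. A median over a chromosome does not give the spread of its single genes, and the part of chromosome number in the members' values was not tested.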

How the data were processed

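RNA from sorted RPE1 cells was sequenced by the submitters from SMART-Seq v4 and Nextera XT libraries, 29 deposited samples that the tables hold as 22 library columns. For Mps1i, DMSO and MN, columns of experiment 2 stand for 2 deposited samples each, assumed to be summed, except MN- at 200 ms. That library held 62831160 counts, against 116934561 to 136865912 in the other MN libraries of experiment 2. The authors deposited estimated counts for each gene, obtained with Salmon (version 1.2 in the submitters' processing notes) on hg38 with GC-bias correction, summarised to genes with tximeta and limited to genes that reach 700 counts in 2 or more samples. They are whole numbers without length offsets, and genes under that minimum are not listed. The members and the gene lists were chosen with earlier results of these data known.

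Differences were tested with edgeR 4.0.16 in R 4.3.3 (quasi-likelihood test, TMM, condition alone, and pulse length beside condition for the pulse), with Benjamini-Hochberg adjustment over all genes of a table taken as passed below 0.05. The SE of a log2 fold change is its size divided by the root of the F statistic. Libraries of one experiment share a date in the labels, so the experiment was also a block. Deviations from group means correlated between matched libraries with r from 0.0279 to 0.372 (Mps1i and DMSO), -0.0133 to 0.509 (MN) and 0.00951 to 0.229 (rupture). Libraries were matched by experiment and pulse length, and in the rupture table by date. Matched MN libraries thus came from different wells, and the correlation within a well was not computed. Alternatives were DESeq2 1.42.0, limma-voom (limma 3.58.1), DESeq2 size factors, filterByExpr, at least 1400 counts in no fewer than 1 in 2 libraries, the pulse as a term, 1 condition alone, each library or experiment left out, and the well as a block. CPM correlations used a prior count of 2. Named were all members, of each list up to 2 genes with the smallest adjusted p among those called, and the 2 genes most like each member. Total counts ranged from 47919780 to 145242185 per library. The tests were tested on simulated data. Positions are from GENCODE v44, promoters from RefSeq. Tables and plots used Python 3.11.15.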

Additional observations from a re-analysis of the deposited data

Results flagged for a closer look

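A single library stood apart for 2 members. In MN- cells of the 800 ms pulse in experiment 1, CREB5 measured 11.2 CPM, where the nearest of the other 3 MN- libraries measured 7.42 CPM, and CCNL1 measured 75.1 CPM, where the nearest measured 61.5 CPM. The gap took up over 0.9 of the group's range in both. 40 groups of 4 libraries were examined in this way, of which chance alone flags about 1 in 20. Without this library the log2 fold changes of CREB5 and CCNL1 between MN+ and MN- kept their sign.

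The direction differed between experiments for 2 members, each with a value that did not pass the test. ETS2 was lower in Mps1i than in DMSO in experiment 1 (log2 fold change -0.02) and higher in experiment 2 (0.08), a difference of 0.0945 that did not pass the interaction test (adjusted p = 0.639, edgeR). SNAI2 was higher in MN+ than in MN- in experiment 1 (0.16) and lower in experiment 2 (-0.21), a difference of -0.365 that did not pass either (adjusted p = 0.976, edgeR).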

How the results depend on the processing

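The 6 members called between Mps1i and DMSO stayed called in every alternative in which they were tested. The count ran from 5, where a minimum of 1400 counts left CREB5 out, to 9, and the replicate block in edgeR gave 8. The 9 came from DESeq2 with the experiment as a replicate block, which also called SNAI2. Calls of CREB5 and SNAI2 carry the limit on their listing given above. Without single libraries it was 6 or 7. Between MN+ and MN- the count of 0 became 1 with DESeq2, 4 with DESeq2 and the replicate block and 3 with the well as the block, and it was 0 in the others. The 3 include CREB5, with the same limit on its listing. Calls between pulse lengths were 0 throughout. The rupture median of 0.64 lay between 0.55 and 0.70 with a date left out. Members were chosen as higher on each date, so this median had to stay above 0 and is a description only. The cause of the changes in the counts was not tested.

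Log2 fold changes that were never called changed sign as follows. With libraries or experiments left out, ETS2 ran from -0.021 to 0.076 in Mps1i, and SNAI2 from -0.21 to 0.16 and PPP1R3C from -0.038 to 0.22 in MN+. Between pulses in the Mps1i and DMSO table, the ranges were -0.042 to 0.074 for PPP1R3C, -0.037 to 0.065 for TSC22D1, -0.11 to 0.19 for CLDN1, -0.13 to 0.071 for CREB5, -0.20 to 0.056 for ARID5B and -0.060 to 0.23 for SNAI2. In the MN table they were -0.13 to 0.092 for RCAN1, -0.044 to 0.12 for FILIP1L, -0.13 to 0.20 for PPP1R3C, -0.12 to 0.047 for ETS2, -0.44 to 0.0066 for CREB5, -0.15 to 0.010 for CCNL1, -0.077 to 0.18 for CLDN1 and -0.12 to 0.0035 for TSC22D1. In Mps1i libraries alone the pulse values were -0.025 for PPP1R3C, -0.037 for TSC22D1 and -0.0021 for CLDN1, and in DMSO alone 0.17 for CREB5 and 0.042 for ARID5B. In MN- alone they were -0.098 for FILIP1L, -0.078 for PPP1R3C and 0.10 for ETS2, and in MN+ alone 0.089 for RCAN1, 0.029 for CREB5, 0.018 for CCNL1 and -0.061 for CLDN1. With limma-voom they were -0.0025 for PPP1R3C in the first table and 0.00045 for RCAN1 in the second. A lone library left in a group and pulse was assumed to vary like the others.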
